A study of Mus musculus with 25 samples.

Results

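Cells make cholesterol from acetyl-CoA through mevalonate, squalene and lanosterol, and fatty acids from malonyl-CoA by repeated elongation. Most enzymes of both routes are transcribed under sterol regulatory element binding proteins (SREBP-1 and SREBP-2), which the escort protein SCAP carries out of the endoplasmic reticulum when sterols are low and which INSIG proteins hold back when sterols are high. Proliferating blood cells draw on these routes for membranes, and mevalonate intermediates also feed protein prenylation. The 32 genes described here are the mevalonate arm (Acat2, Hmgcs1, Mvk, Pmvk, Mvd, Idi1 and Fdps, 7 genes), the sterol arm from squalene to cholesterol (Fdft1, Sqle, Lss, Cyp51, Tm7sf2, Msmo1, Nsdhl, Hsd17b7, Ebp, Sc5d and Dhcr7, 11 genes), the SREBP regulators and a sterol carrier (Srebf1, Srebf2, Scap, Insig1, Insig2 and Stard4, 6 genes) and the fatty acid arm (Acly, Acaca, Fasn, Elovl6, Scd1, Scd2, Fads1 and Fads2, 8 genes). They are a fixed list of names matched by symbol to the gene identifiers of the counts table. All 32 were among the 13641 genes of the table and all 32 passed the low-count filter that left 13630 genes for testing.

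The series profiled bulk RNA from hematopoietic stem cells (HSCs) sorted from mouse bone marrow as lineage-negative, Sca1+, cKit+, CD48- and CD150+. Recipients carried donor marrow of SclCre;GFP (WT), SclCre;V617F;GFP (VF), SclCre;V617F;IL-1b-/-GFP (Il1bKO) or SclCre;V617F;IL-1R1-/-GFP (Il1r1KO) genotype, so each group shared SclCre and GFP by its label, and each of the 3 mutant genotypes carried the inducible JAK2-V617F construct, a kinase mutation of myeloproliferative neoplasms. Regulatory sequence of Scl directs the Cre to HSCs and other early hematopoietic cells. Tamoxifen was given 16 weeks after engraftment, and cells were taken 2 weeks after its start (4 libraries per genotype) or 4 weeks after it (3 libraries per mutant genotype, with no WT group), 25 libraries in 7 groups. The labels describe processing in 2 batches that are the 2 time points, so a difference between weeks cannot be told apart from a difference between batches. Host-derived cells were not counted separately, the age of the mice is not given in the sources used here, and the labels do not say whether each library came from its own mouse, so p-values measure the spread between these libraries.

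Libraries held 21990959 to 40178173 counts. The 14 stem cell markers were detected in each library, and several defining B, T and macrophage markers were not among the measured genes. Others of those lists were detected in each library, such as Cd79b (17.4 to 52.4 CPM), Nkg7 (5.57 to 119.1) and Cd68 (5.54 to 40.7). The progenitor genes Flt3 (5.38 to 220.3) and Cd34 (88.3 to 402.7) and the myeloid gene Lyz2 (306.0 to 557.7) were detected in each library too. Il1b had 0 reads in the 7 Il1bKO libraries, while Il1r1 was at 9.79 to 31.1 CPM in the 7 libraries labelled Il1r1KO against 8.59 to 24.3 in the 7 VF libraries. The Il1r1 count was thus not lower in the knockout, and a count per gene, with no values by exon, does not check those labels. Libraries labelled WT held at most 20 reads of the human JAK2 construct, but also 0 to 1 reads of CreERT2, against 5382 to 32987 in the mutant libraries, and 83 to 27442 reads of pEGFP; WT and the mutant genotypes therefore differed in the Cre as well as in JAK2. Il1bKO_4w replicate 5 stood apart, with 11871 genes detected, the most counts and a median correlation of 0.884 to the other libraries. The next lowest were Il1r1KO_4w replicate 5 (0.941) and VF_4w replicate 6 (0.951), and fits without these 3 libraries are given where they move a value. No member lies on chromosome 2 with Il1b, and the nearest member to Il1r1 on chromosome 1 is 81.1 Mb away.

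Promoter letters are shown for Hmgcs1 and Insig1, whose values separated Il1r1KO from VF in each week, and for Hsd17b7, the member with the lowest p between Il1bKO and VF. The bases from 250 before the RefSeq start (GRCm38.p6) are printed 5′ to 3′ on the gene's strand, up to that start for Hmgcs1 and up to the earlier GENCODE start for Insig1 (201 bases) and Hsd17b7 (214 bases), with capitals for any match, on either strand, to CCAAT, which NF-Y binds, GGGCGG, which SP family factors bind, or TCACNCCAC, a form of the sterol regulatory element that SREBPs bind. Hmgcs1 lies at chr13:119690101-119690350 on the plus strand, Insig1 at chr5:28071162-28071362 on the plus strand and Hsd17b7 at chr1:169969242-169969455 on the minus strand.
Hmgcs1: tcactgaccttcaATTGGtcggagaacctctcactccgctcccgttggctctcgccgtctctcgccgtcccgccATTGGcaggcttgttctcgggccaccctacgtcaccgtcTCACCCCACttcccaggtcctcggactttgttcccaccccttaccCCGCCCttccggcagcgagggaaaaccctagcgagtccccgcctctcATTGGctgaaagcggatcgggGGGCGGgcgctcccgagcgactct
Insig1: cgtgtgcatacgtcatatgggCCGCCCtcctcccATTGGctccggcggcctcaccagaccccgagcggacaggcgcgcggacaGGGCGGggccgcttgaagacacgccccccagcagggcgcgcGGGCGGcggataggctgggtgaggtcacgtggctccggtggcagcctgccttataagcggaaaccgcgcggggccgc
Hsd17b7: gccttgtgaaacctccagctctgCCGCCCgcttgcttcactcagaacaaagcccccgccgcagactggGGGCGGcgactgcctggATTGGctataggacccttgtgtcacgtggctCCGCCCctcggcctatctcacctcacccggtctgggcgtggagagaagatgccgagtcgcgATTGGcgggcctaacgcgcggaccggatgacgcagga
Hmgcs1 holds TCACCCCAC at position -137 from the start, CCAAT matches at -237, -176 and -45, and GGGCGG matches at -92 and -24. Insig1 holds a CCAAT match at -216 and GGGCGG matches at -229, -167 and -126, and Hsd17b7 holds 3 matches of each of these shorter motifs, of which the CCAAT match at -12 lies past the letters shown. The table had 33 promoters, of 250 bases before and 50 after a start, for 25 members, and none for Fdps, Fdft1, Sqle, Stard4, Scd1, Scd2 and Fads1. CCAAT occurred in 21 of the 33 (63.6%) against 37.4% of 32851 promoters of all genes and 37.7% of 13410 promoters of genes in the counts table. GGGCGG occurred in 25 (75.8%) against 35.7% and 60.6%, and TCACNCCAC in 1 (3.03%), that of Hmgcs1, against 1.24% and 1.09%. The motifs do not overlap in the letters shown. A match is a description of the letters and not a binding site.

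Of the list, HSCs expressed 3 of the 4 fatty acid desaturase genes and Acly most strongly. Read counts scaled to library size (CPM) divided by the length of the gene's merged exons in kilobases gave, as the mean of 25 libraries, 69.8 for Scd2, 53.3 for Fads2, 44.7 for Acly and 42.7 for Fads1, the 4 highest levels of the list. Scd2 and Scd1 encode stearoyl-CoA desaturases, Fads1 and Fads2 encode the desaturases of polyunsaturated fatty acids, and Acly makes cytosolic acetyl-CoA from citrate. Scd1, at 1.87 CPM per kb, was 37.2 times lower than Scd2, its neighbour on chromosome 19 across a gap of 87590 bases. Acaca, the acetyl-CoA carboxylase that commits carbon to fatty acids, was the lowest at 1.65 CPM per kb, over a union of exons of 17074 bases, and the list therefore spanned 42.4-fold. In all, 25 of the 32 lay above the median gene of the table on this scale.

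**Figure D1:**
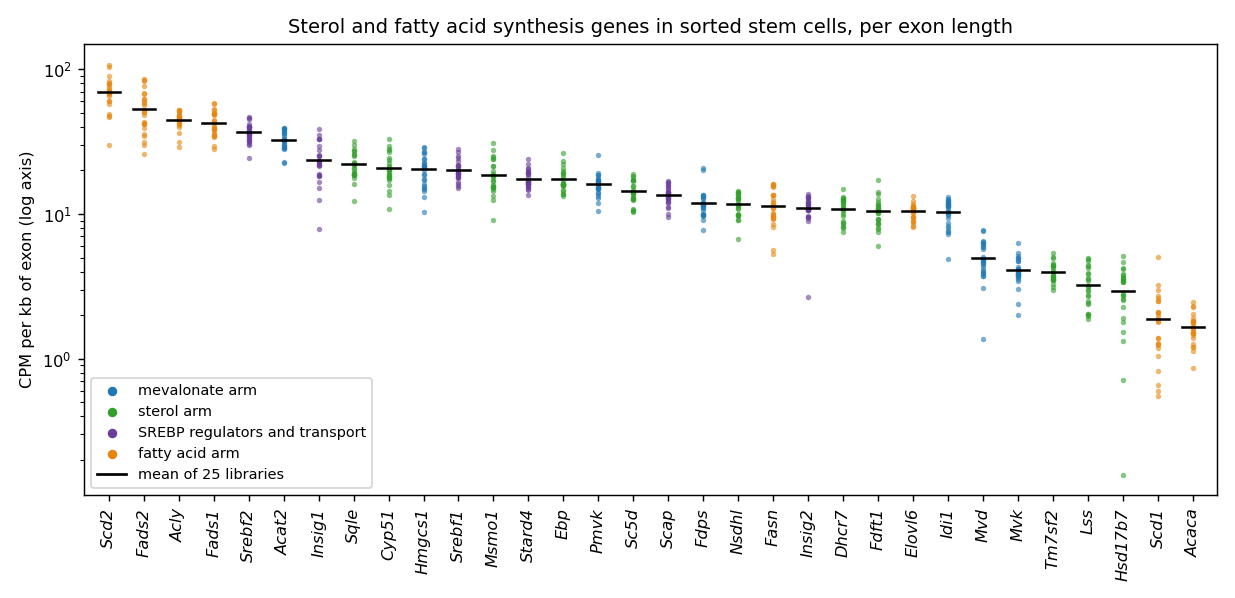
Level of each of the 32 genes in CPM per kb of exon (log axis), 1 point per library (25 libraries) coloured by the arm of the pathway, with the mean as a black line, genes ordered by mean. Scd2, Fads2, Acly and Fads1 lead, and Scd1 and Acaca are lowest; the single low point of Hsd17b7 is Il1bKO_4w replicate 5.

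Among the regulators, Srebf2, which encodes the SREBP of the sterol genes, was at 36.6 CPM per kb, 1.82 times Srebf1, which encodes the SREBPs more tied to fatty acid genes (20.2). Insig1, itself an SREBP target, was at 23.6, 2.16 times Insig2 (10.9). Scap was at 13.6 and Stard4, a soluble sterol carrier, at 17.6. In the mevalonate and sterol arms the highest were Acat2, the thiolase that makes acetoacetyl-CoA (32.6), Sqle, the squalene epoxidase (22.1), Cyp51, the lanosterol demethylase (20.7), Hmgcs1, which makes HMG-CoA (20.3), and Msmo1, which oxidises sterol methyl groups (18.7). The lowest of these arms were Mvd, the mevalonate diphosphate decarboxylase (4.96), Mvk, the mevalonate kinase (4.07), Tm7sf2, a sterol reductase (3.97), Lss, the lanosterol synthase (3.24), and Hsd17b7, the sterol ketone reductase (2.94). The spread between libraries of a group, as an SD of log2(CPM + 0.5) pooled over the 7 groups, had a median of 0.27 over the members and ran from 0.14 to 0.66, against a median of 0.31 over all genes tested. The remaining members lay between 10.3 and 17.4 CPM per kb. Fasn, for example, ranged from 58.0 to 177.3 CPM over the 25 libraries.

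Within a group, libraries differed over many members at once. Among the 3 VF libraries at 4 weeks, replicate 5 was lowest for 21 of the 32 members and replicate 6 highest for 23. Among the 4 VF libraries at 2 weeks, replicate 1 was lowest for 22 and replicate 4 highest for 17, and in the group labelled WT, replicate 3 was highest for 16. Il1bKO_2w replicate 4 was lowest in its group for 18 members. These shared shifts lie inside the groups that every comparison below uses. The same counts were not made over all genes, so a shift of these members and one of the whole library cannot be told apart.

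**Figure D2:**
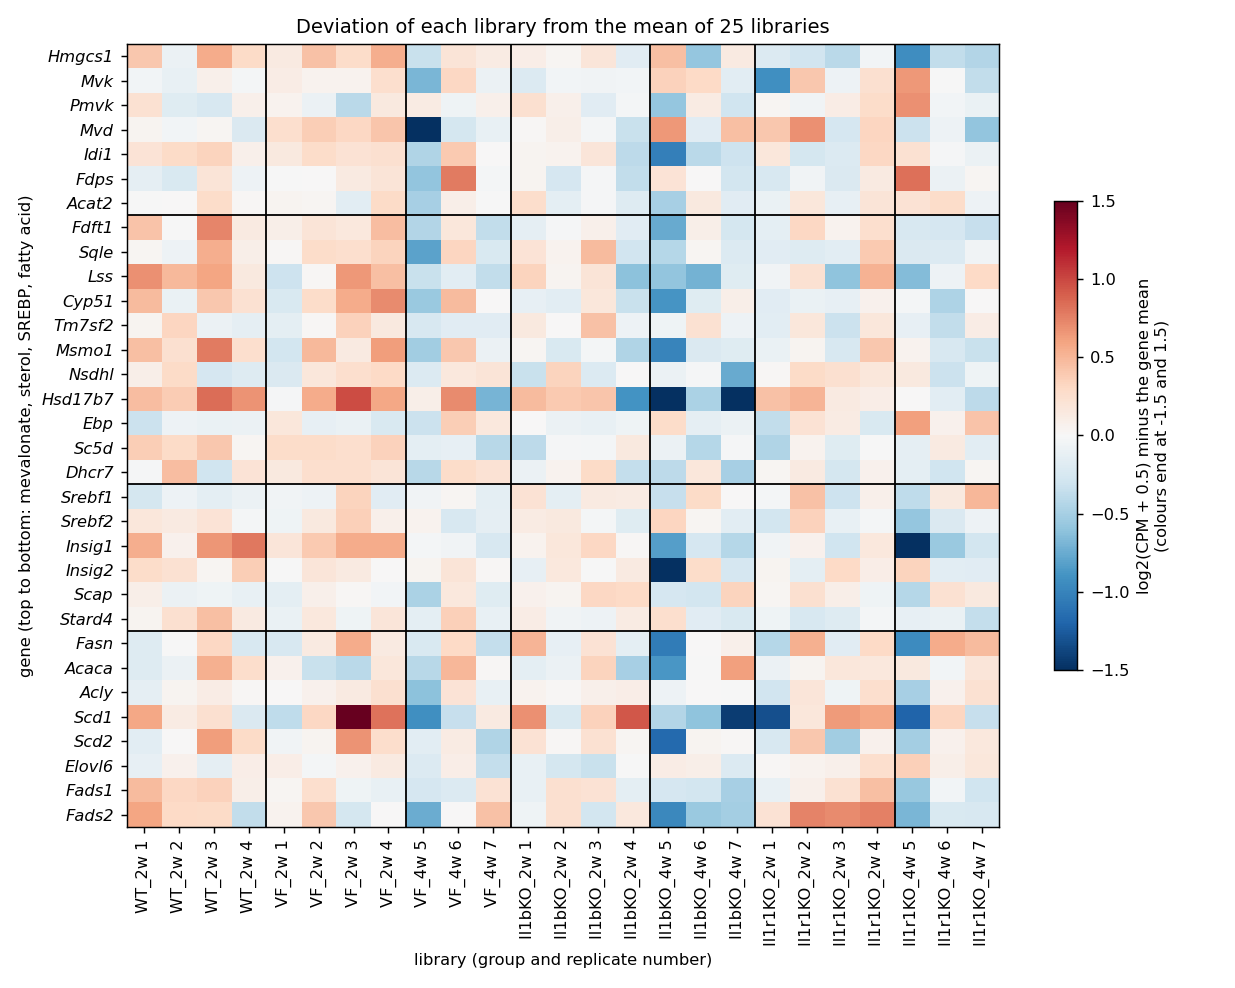
Deviation of log2(CPM + 0.5) from the gene's mean over 25 libraries, genes in rows by arm of the pathway and libraries in columns by group, with colours ending at -1.5 and 1.5. The columns of VF_4w replicates 5 and 6 run in opposite directions over most rows, and the Insig1 row is blue in the Il1bKO and Il1r1KO libraries of 4 weeks.

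The comparison of VF with WT at 2 weeks addresses mutant JAK2 early after induction, and no member was called in it. These groups also differed in CreERT2, at 0 to 1 reads in WT and 6132 to 10208 in VF, and in the range of pEGFP, at 3.03 to 998.2 CPM and 462.1 to 480.04, so mutant JAK2 and the Cre cannot be told apart here. Of the 32 genes, 19 were higher and 13 lower in VF, with a median log2 fold change of 0.03, against 0.00 over all genes tested. No member had an unadjusted p under 0.05 (2.27% of all genes did), and 49.5% of all genes were lower. EdgeR's quasi-likelihood test with Benjamini-Hochberg adjustment called 0 members and 1 gene of 13630 (0.00734%); DESeq2 and limma voom called 0 members too. Fads1, the polyunsaturated fatty acid desaturase, had the lowest p: 280.9, 251.2, 257.2 and 214.2 CPM in the 4 libraries labelled WT and 206.1, 240.9, 193.2 and 187.5 in VF (log2 fold change -0.28, SE 0.14, adjusted p = 0.9998). The highest VF library lay inside the range of WT. Stard4 stood at 100.8 ± 10.3 CPM (SD, n = 4) against 113.8 ± 14.4 CPM (SD, n = 4) (log2 fold change -0.18, SE 0.13, adjusted p = 0.9998), and at a log2 fold change of -0.09 without WT_2w replicate 3.

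Mvd was the member whose groups did not overlap: 10.6, 11.5, 11.0 and 11.9 CPM in VF and 9.06, 8.52, 9.01 and 7.51 in WT (log2 fold change 0.40, SE 0.30, adjusted p = 0.9998), while 1.87% of all genes separated in that direction. The regulators gave close means with wide intervals. Srebf2 was at 286.1 ± 36.2 CPM (SD, n = 4) and 283.6 ± 20.2 CPM (SD, n = 4), and the 95% interval of the log2 difference ran from -0.25 to 0.28. Srebf1 was at 114.0 ± 18.9 CPM (SD, n = 4) and 101.8 ± 5.82 CPM (SD, n = 4) (interval -0.17 to 0.50), and Insig1 at 93.6 ± 11.3 CPM (SD, n = 4) and 100.9 ± 20.6 CPM (SD, n = 4) (interval -0.49 to 0.27). Fasn, the fatty acid synthase, was at 135.7 ± 31.1 CPM (SD, n = 4) and 119.1 ± 21.5 CPM (SD, n = 4) (interval -0.38 to 0.75). Of the 58 other tested genes of sterol, fatty acid and SREBP biology, 0 were called. At an unadjusted p under 0.05, 1 was higher and 1 lower, against 1.06% and 1.21% of all genes.

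**Figure D3:**
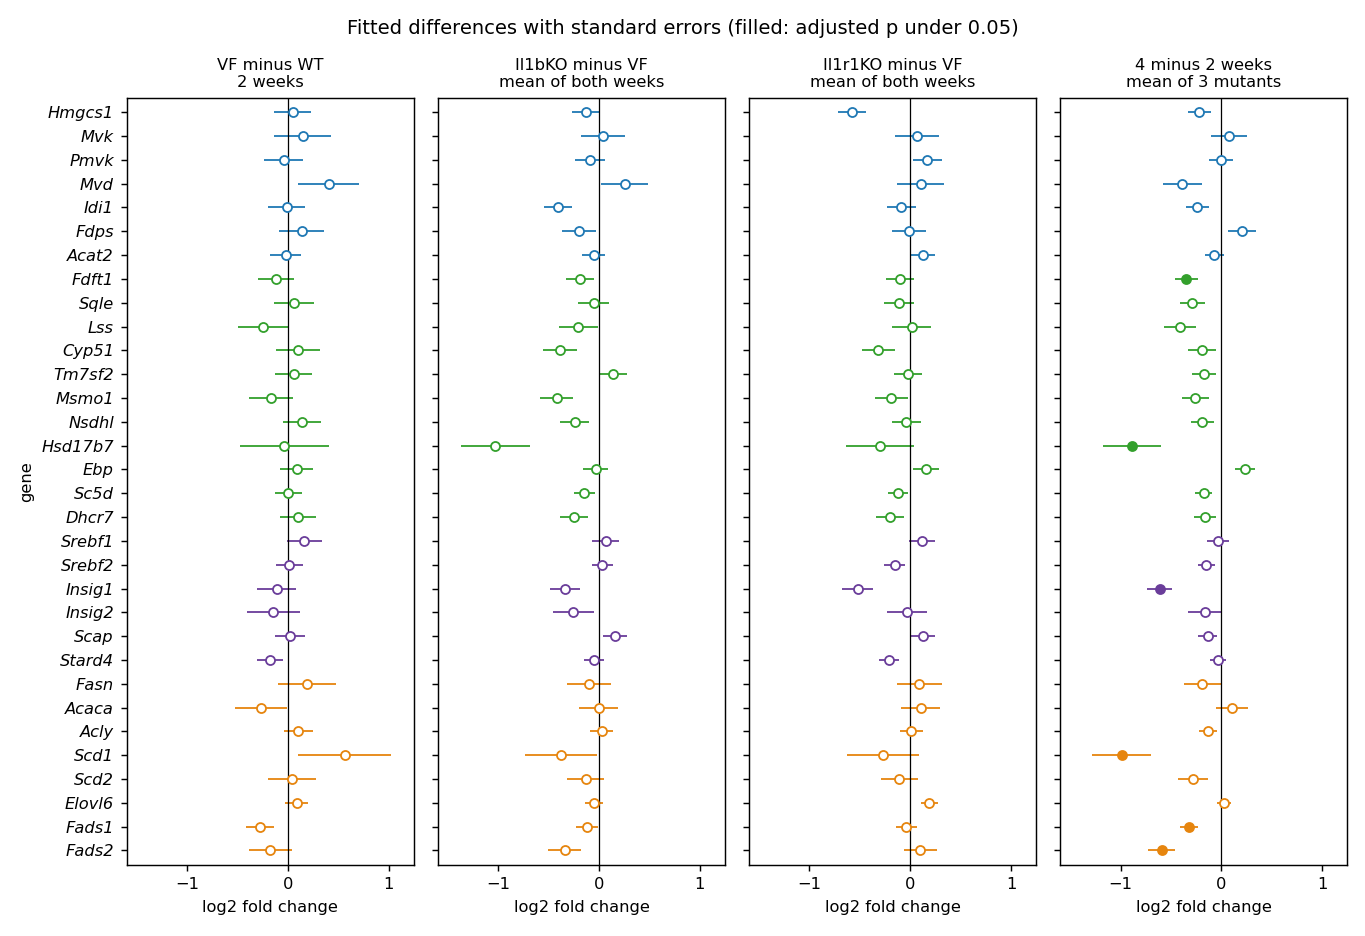
Fitted log2 fold change of each member with its SE (bars) in 4 comparisons, genes in rows coloured by arm, filled where the adjusted p is under 0.05. Filled points occur in the comparison of 4 with 2 weeks, where 6 genes are lower; in Il1bKO minus VF most sterol arm points lie left of 0, and in Il1r1KO minus VF Hmgcs1 and Insig1 lie farthest left.

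Loss of IL-1β in the mutant background went with lower values for most sterol genes, none of which passed the test. The Il1bKO libraries also held more CreERT2 than VF, at 445.1 to 828.1 CPM against 194.7 to 387.7, without overlap. With both weeks pooled, the ranges of the JAK2-V617F and pEGFP sequences overlapped. At 2 weeks JAK2-V617F exons 13 to 25 were higher without overlap, at 56.5 to 72.3 CPM in Il1bKO against 39.1 to 53.7 in VF. At 4 weeks they overlapped, at 45.0 to 99.7 CPM against 43.6 to 60.8. The part of these constructs in the values of the members was not tested. Averaged over both weeks, 25 of the 32 members were lower in Il1bKO than in VF, with a median log2 fold change of -0.13, while 52.2% of all genes tested were lower, with a median of -0.01. The sterol arm had 10 of 11 genes lower (median -0.21), the mevalonate arm 5 of 7 and the fatty acid arm 7 of 8 (median -0.11). Of the 6 regulators and carriers, 3 were lower. The test called 0 members and 19 of all genes (0.139%). At an unadjusted p under 0.05, 5 members were lower and 0 higher, against 4.93% and 4.45% of all genes. DESeq2 and limma voom called 0 members.

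Hsd17b7 had the largest difference. It stood at 12.9, 19.4, 26.3 and 19.7 CPM in VF and 18.4, 17.3, 17.6 and 6.79 in Il1bKO at 2 weeks, and at 14.0, 21.6 and 7.86 and 0.803, 9.22 and 3.63 at 4 weeks (log2 fold change -1.03, SE 0.34, adjusted p = 0.383). The groups overlapped in each week, and the lowest value, from 32 reads, came from Il1bKO_4w replicate 5, the library that stood apart; without it the log2 fold change was -0.78, and without Il1bKO_4w replicate 6 it was -1.55 and passed the test at an adjusted p of 0.0348. Idi1, which isomerises isopentenyl diphosphate, was at 34.8 ± 5.76 CPM (SD, n = 4) against 41.1 ± 1.45 CPM (SD, n = 4) at 2 weeks and 23.97 ± 6.02 CPM (SD, n = 3) against 35.7 ± 10.4 CPM (SD, n = 3) at 4 weeks (log2 fold change -0.41, SE 0.14, adjusted p = 0.396). Msmo1 was at 99.5 ± 14.6 CPM (SD, n = 4) against 135.2 ± 35.5 CPM (SD, n = 4), and 83.1 ± 23.6 CPM (SD, n = 3) against 109.5 ± 35.2 CPM (SD, n = 3) (log2 fold change -0.42, SE 0.17, adjusted p = 0.443). For each of these genes the ranges of Il1bKO and VF overlapped in each week. Without the 3 libraries of lowest correlation the log2 fold changes of Hsd17b7, Idi1 and Msmo1 were -0.58, -0.20 and -0.18, and that of Hsd17b7 was -0.65 with limma voom.

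Cyp51 and Insig1 were the other 2 members lower at an unadjusted p under 0.05, by 23.7% and 20.9% in the fit. Cyp51 had 75.8, 107.3, 130.5 and 145.4 CPM in VF and 81.0, 79.6, 99.8 and 69.9 in Il1bKO at 2 weeks, so that the lowest VF library fell among the Il1bKO libraries. Sqle, the epoxidase that opens the sterol arm, was at 132.2 ± 29.0 CPM (SD, n = 4) against 140.3 ± 12.9 CPM (SD, n = 4), with an interval of -0.35 to 0.24 on the log2 scale for the mean of both weeks. Hmgcs1 had an interval of -0.41 to 0.14, Srebf2 of -0.17 to 0.23 and Srebf1 of -0.19 to 0.32. In the fatty acid arm, Fasn had an interval of -0.53 to 0.33, Acaca of -0.39 to 0.38, Acly of -0.19 to 0.25 and Scd2 of -0.49 to 0.23.

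Members lower in Il1bKO were the majority in each week. At 2 weeks 26 of 32 were lower in Il1bKO (16 of the 18 mevalonate and sterol genes), and at 4 weeks 22 of 32 (13 of 18), with 0 called in either (1 of all genes, 0.00734%, at 2 weeks and 17, 0.125%, at 4 weeks); 49.9% and 51.7% of all genes tested were lower. At an unadjusted p under 0.05 there were 3 members at 2 weeks and 4 at 4 weeks, against 1.36% and 14.7% of all genes. At 2 weeks Sc5d, the sterol desaturase, Mvk, Fdft1, the squalene synthase, and Mvd did not overlap VF on the lower side (2.08% of all genes), and at 4 weeks Insig1 was lower without overlap (7.3%) and Tm7sf2 higher (5.72%). Mvd ran the other way at 4 weeks, at 14.1, 7.79 and 12.2 CPM against 2.54, 7.27 and 8.14 in VF. A test of the change in the difference between weeks, added after the data were seen, gave Mvd the lowest p of the members (log2 fold change 1.34, SE 0.46, adjusted p = 0.520) and called 0 members and 2 of all genes (0.0147%), with 2 members (8.28% of all genes) at an unadjusted p under 0.05. DESeq2 called 1 member at 4 weeks, Hsd17b7.

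The erythroid markers were lower in Il1bKO beside these genes, in 12 of 12 (median log2 fold change -0.61, 0 called), with summed levels of 1647.7 to 2500.4 CPM against 1977.1 to 2664.9 in VF. Megakaryocyte markers were lower in 8 of 9 (median -0.63, 0 called), with VF_4w replicate 6 at 2569.0 CPM against 362.2 to 938.8 in the other VF and Il1bKO libraries. By week, 5 of 9 were higher at 2 weeks (median 0.11) and 8 of 9 lower at 4 weeks (median -1.09). Cycling genes were higher in 18 of 25 (median 0.10). The part of these in the sterol values was not tested. In bulk RNA, fewer cells of a type and less RNA per cell cannot be told apart.

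Hmgcs1 and Insig1 were the members farthest below VF in the libraries labelled Il1r1KO, and neither passed the test. The same libraries also held more of the constructs than VF: 139.8 to 218.4 CPM against 99.7 to 130.4 of JAK2-V617F exons 3 to 12, 81.6 to 114.9 against 39.1 to 60.8 of exons 13 to 25, and 867.8 to 1473.4 against 462.1 to 540.9 of pEGFP, without overlap. CreERT2 was higher without overlap within each week too. It was at 320.7 to 594.6 CPM against 243.2 to 318.4 in VF at 2 weeks. At 4 weeks it was at 426.3 to 448.3 CPM against 194.7 to 387.7. The part of these constructs in the values of the members was not tested. Averaged over both weeks, 19 of 32 members were lower in Il1r1KO than in VF, with a median log2 fold change of -0.04, against 49.1% of all genes and a median of 0.005. The mevalonate arm, which holds Hmgcs1, had 3 of 7 lower (median 0.07), the sterol arm 9 of 11 (median -0.11), the regulators and carriers 4 of 6 and the fatty acid arm 3 of 8. The test called 0 members and 23 of all genes (0.169%). At an unadjusted p under 0.05, 3 members were lower (Hmgcs1, Insig1 and Stard4) and 1 higher (Elovl6), against 5.61% and 5.79% of all genes.

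Hmgcs1 (ENSMUSG00000093930, chromosome 13, 119690379 to 119708260, plus strand), whose promoter is the one with the sterol regulatory letters above, stood at 99.5, 122.4, 109.5 and 132.2 CPM in VF and 78.6, 74.2, 68.1 and 87.6 in Il1r1KO at 2 weeks. At 4 weeks it stood at 71.7, 103.3 and 98.7 in VF and 47.4, 69.8 and 66.4 in Il1r1KO. Each of the 7 Il1r1KO libraries lay below each VF library of its week. The fitted level was 33.2% lower (log2 fold change -0.58, SE 0.14, adjusted p = 0.105). The call turned with the tool and with the groups fitted: DESeq2 gave an adjusted p of 0.0132, limma voom with quality weights 0.0206 and edgeR on the 4 groups compared 0.0499996, while the other 5 alternatives and the fits that leave out a library gave 0.0735 to 0.244. Libraries labelled WT ran from 85.1 to 132.8 CPM at 2 weeks and Il1bKO libraries from 80.0 to 102.9 CPM at 2 weeks and 60.4 to 124.0 at 4 weeks.

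Insig1 (ENSMUSG00000045294, chromosome 5, 28071363 to 28078662, plus strand) stood at 78.6, 91.0, 102.1 and 102.5 CPM in VF and 67.0, 72.4, 56.2 and 77.4 in Il1r1KO at 2 weeks. At 4 weeks it stood at 67.9, 66.9 and 58.9 and 24.2, 47.1 and 57.1. Again the groups did not overlap in either week, and the fitted level was 30.4% lower (log2 fold change -0.52, SE 0.15, adjusted p = 0.177). Il1r1KO_4w replicate 5, which stood apart above, was the lowest of the 25 libraries for Insig1 and for Hmgcs1. With single libraries left out, the log2 fold change ran from -0.65 to -0.38 for Insig1 and from -0.66 to -0.50 for Hmgcs1. Over the other 8 alternatives it ran from -0.56 to -0.37 for Insig1 and from -0.58 to -0.46 for Hmgcs1. Genes that separated on the lower side in each week numbered 50 of all tested (0.367%), and these 2 members were among them. Elovl6, which elongates saturated fatty acids, was higher, at 71.8 ± 5.29 CPM (SD, n = 4) against 70.1 ± 3.29 CPM (SD, n = 4) at 2 weeks and 77.1 ± 7.51 CPM (SD, n = 3) against 60.6 ± 9.97 CPM (SD, n = 3) at 4 weeks (log2 fold change 0.19, SE 0.09, adjusted p = 0.407). Stard4 was 13.7% lower in the fit.

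**Figure D4:**
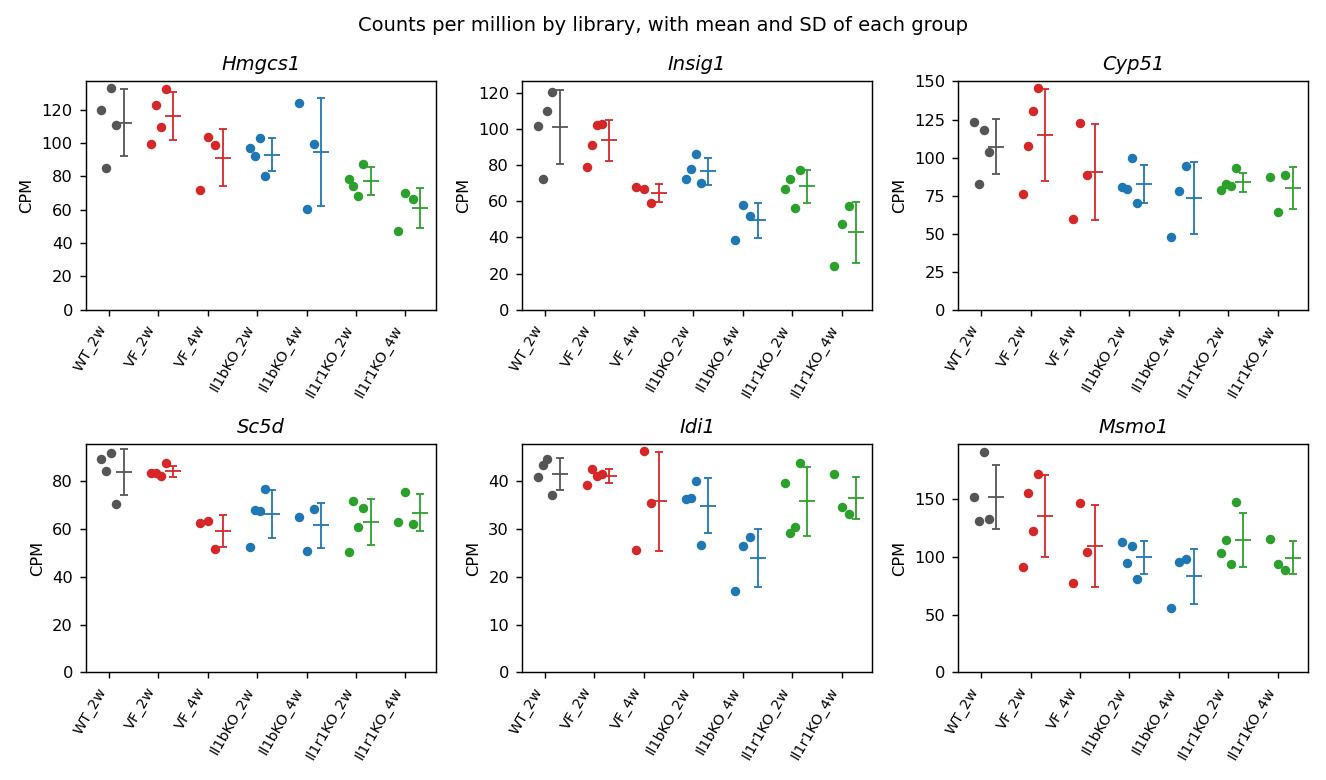
CPM of 6 sterol pathway genes by library (points) in the 7 groups, with the group mean and SD beside them. For Hmgcs1 and Insig1 the Il1r1KO points lie below the VF points of the same week. In both knockouts Cyp51, Idi1 and Msmo1 overlap VF in each week, and Sc5d is separated from VF at 2 weeks.

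Of the regulators, Insig1 alone separated from VF in each week. Srebf2 was at 260.6 ± 49.5 CPM (SD, n = 4) against 286.1 ± 36.2 CPM (SD, n = 4) and 215.4 ± 37.2 CPM (SD, n = 3) against 242.6 ± 25.3 CPM (SD, n = 3), with a log2 interval of -0.36 to 0.05 for the mean of both weeks. The interval was -0.14 to 0.37 for Srebf1, -0.10 to 0.35 for Scap and -0.43 to 0.36 for Insig2. In the rest of the route it was -0.41 to 0.18 for Sqle, -0.34 to 0.52 for Fasn, -0.29 to 0.49 for Acaca, -0.21 to 0.23 for Acly, -0.96 to 0.43 for Scd1 and -0.47 to 0.25 for Scd2. Of the 58 other pathway genes 0 were called. At an unadjusted p under 0.05, 9 were lower and 0 higher, against 5.61% and 5.79% of all genes.

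At 2 weeks 23 of 32 members were lower in Il1r1KO than in VF and at 4 weeks 13 of 32, with 15 and 7 of the 18 mevalonate and sterol genes, and 0 were called in either week (7 of all genes, 0.0514%, and 20, 0.147%); 48.9% and 48.8% of all genes were lower. At an unadjusted p under 0.05 there were 4 members at 2 weeks and 3 at 4 weeks, against 3.15% and 12.7% of all genes. The 2-week comparisons of both knockouts share the same 4 VF libraries. Sc5d, singled out after its values were seen, was at 83.3, 83.1, 82.1 and 87.4 CPM in VF at 2 weeks, against 50.2, 71.5, 60.8 and 68.4 in Il1r1KO and 52.3, 67.7, 67.6 and 76.4 in Il1bKO. In Il1r1KO it was 1 of 4 members below VF without overlap at 2 weeks (2.09% of all genes), with Hmgcs1, Insig1 and Dhcr7. VF libraries held 62.3, 63.2 and 51.6 at 4 weeks, where the 3 genotypes overlapped. The change in the Il1r1KO difference between weeks had its lowest p among the members for Sc5d (log2 fold change 0.60, SE 0.20, adjusted p = 0.798) and then Fads2 (log2 fold change -0.90, SE 0.33, adjusted p = 0.847), the 2 members at an unadjusted p under 0.05 (5.32% of all genes); edgeR called 0 genes (0%) in that test, DESeq2 22 and limma voom 5, none of them members.

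Against the libraries labelled WT at 2 weeks, 24 of 32 members were lower in Il1bKO and 21 of 32 in Il1r1KO, where 13 of 32 were lower in VF, and 0 were called in any of these (6 of all genes, 0.044%, in Il1bKO and 8, 0.0587%, in Il1r1KO). At an unadjusted p under 0.05 there were 3 members in Il1bKO (3.1% of all genes) and 4 in Il1r1KO (5.98%). All genes were lower in 49.1% and 50.1%. These 3 comparisons share the same 4 WT libraries. Hmgcs1 had a log2 fold change of -0.54 (SE 0.18) in Il1r1KO, -0.27 (SE 0.18) in Il1bKO and 0.05 (SE 0.18) in VF. Insig1 had -0.56 (SE 0.20), -0.40 (SE 0.19) and -0.11 (SE 0.19). Stard4 did not overlap WT in Il1r1KO (lower, 2.36% of all genes), at 93.4, 82.1, 85.2 and 95.1 CPM against 100, 115.2, 133.3 and 106.8, and Msmo1 did not overlap WT in Il1bKO (lower, 2.27%).

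Between the knockouts, 23 of 32 members were higher in Il1r1KO than in Il1bKO over both weeks, and 0 of these differences passed the test, with 24 of all genes called (0.176%) and 46.3% of all genes lower. DESeq2 and limma voom called 0 members, and 5 members had an unadjusted p under 0.05 (14.1% of all genes). Hmgcs1 was among the 9 lower (log2 fold change -0.45, SE 0.14, adjusted p = 0.207), and passed the test in edgeR without Il1bKO_4w replicate 6, at an adjusted p of 0.0296, while its log2 fold change was -0.24 with limma voom (0.479) and -0.25 without the 3 libraries of lowest correlation (0.591). Elovl6 was higher (log2 fold change 0.24, SE 0.09, adjusted p = 0.241). Fads2 was higher too, with 193.2, 278.9, 272.3 and 281.7 CPM in Il1r1KO and 160.1, 197.1, 138.1 and 186.0 in Il1bKO at 2 weeks (log2 fold change 0.44, SE 0.17, adjusted p = 0.255). Its groups touched at 2 weeks, where the lowest Il1r1KO library lay below the highest Il1bKO library.

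The members not yet given by group were described by their group means. In the mevalonate arm, group means of Acat2 ran from 73.8 ± 16.2 CPM in Il1bKO_4w (SD, n = 3) to 90.7 ± 11.5 in Il1r1KO_4w (n = 3) and those of Pmvk, the phosphomevalonate kinase, from 23.2 ± 5.89 CPM in Il1bKO_4w (SD, n = 3) to 31.9 ± 10.4 in Il1r1KO_4w (n = 3). Fdps ran from 44.6 ± 5.95 CPM in Il1bKO_2w (SD, n = 4) to 61.4 ± 22.9 in Il1r1KO_4w (n = 3); its SD in the groups of 4 weeks was set by single libraries, VF_4w replicate 6 and Il1r1KO_4w replicate 5. Neither kinase nor synthase was called in any comparison. In the sterol arm, Lss ran from 23.9 ± 4.85 CPM in Il1bKO_4w (SD, n = 3) to 47.2 ± 7.26 in WT_2w (n = 4), Nsdhl, the sterol decarboxylating dehydrogenase, from 27.5 ± 7.16 CPM in Il1bKO_4w (SD, n = 3) to 37.3 ± 2.97 in Il1r1KO_2w (n = 4), and Dhcr7, which makes cholesterol in the last step, from 53.8 ± 14.3 CPM in Il1bKO_4w (SD, n = 3) to 72.1 ± 2.72 in VF_2w (n = 4). Tm7sf2 ran from 15.1 ± 0.473 CPM in VF_4w (SD, n = 3) to 19.1 ± 3.26 in Il1bKO_2w (n = 4). In the fatty acid arm, Acly ran from 213.0 ± 59.0 CPM in VF_4w (SD, n = 3) to 252.8 ± 18.1 in VF_2w (n = 4) and Acaca from 25.4 ± 5.12 CPM in VF_2w (SD, n = 4) to 30.6 ± 7.28 in WT_2w (n = 4). Scd2 ran from 305.8 ± 122.3 CPM in Il1bKO_4w (SD, n = 3) to 442.5 ± 104.7 in VF_2w (n = 4), with the lowest library, 164.7 CPM, again Il1bKO_4w replicate 5. Among the regulators, Scap ran from 90.5 ± 20.2 CPM in VF_4w (SD, n = 3) to 113.5 ± 11.3 in Il1bKO_2w (n = 4) and Insig2 from 28.2 ± 17.8 CPM in Il1bKO_4w (SD, n = 3) to 43.1 ± 4.16 in WT_2w (n = 4), where the same library held 9.24 CPM.

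The samples of 4 weeks differed from those of 2 weeks in 6 members, all lower, in the mean over the 3 mutant genotypes. In all, 27 of 32 members were lower at 4 weeks, with a median log2 fold change of -0.18 against -0.03 over all genes tested, of which 54.3% were lower. The 6 called were 2 of the sterol arm (Fdft1 and Hsd17b7), 1 regulator (Insig1) and 3 of the fatty acid arm (Fads1, Fads2 and Scd1). Over all genes 1956 of 13630 (14.4%) were called, 8.53% higher and 5.82% lower. Week and batch are the same split, so neither can be assigned to these values.

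Insig1 fell by 34.6% (log2 fold change -0.61, SE 0.12, adjusted p = 0.0033). Its libraries ran from 78.6 to 102.5 CPM at 2 weeks to 58.9 to 67.9 at 4 weeks in VF, from 69.9 to 86.3 to 38.7 to 57.9 in Il1bKO and from 56.2 to 77.4 to 24.2 to 57.1 in Il1r1KO. In VF and Il1bKO the weeks did not overlap, and in Il1r1KO they overlapped by a single library. Fads2 fell by 33.7% (log2 fold change -0.59, SE 0.14, adjusted p = 0.0071), with 85.1, 113.6 and 117.1 CPM in Il1bKO and 103.5, 142.0 and 140.7 in Il1r1KO at 4 weeks, each below its 2-week libraries. In VF the 2-week range of Fads2, 138.7 to 221.0 CPM, lay inside that of 4 weeks, 99.6 to 226.6. Insig1 and Fads2 were called in all 28 alternatives.

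Fads1, the neighbour of Fads2 on chromosome 19 across 81141 bases, fell by 19.9% (log2 fold change -0.32, SE 0.09, adjusted p = 0.0186). Its mean was 192.7 ± 36.5 CPM (SD, n = 3) against 206.9 ± 23.9 CPM (SD, n = 4) in VF, 159.8 ± 14.6 CPM (SD, n = 3) against 210.6 ± 30.0 CPM (SD, n = 4) in Il1bKO and 165.7 ± 30.0 CPM (SD, n = 3) against 228.1 ± 37.5 CPM (SD, n = 4) in Il1r1KO. The call was lost with limma voom (adjusted p = 0.0515) and without VF_4w replicate 6, Il1bKO_4w replicate 5 and Il1r1KO_4w replicate 5 together (0.0725). Scd1 fell by 49.7% (log2 fold change -0.99, SE 0.30, adjusted p = 0.0287), between 2.94 to 24.8 CPM at 2 weeks and 2.696 to 10.2 at 4 weeks; its call was kept in 20 of 28 alternatives and lost with limma voom (0.144). Scd2, next to it, was at a log2 fold change of -0.28 (SE 0.15) and was not called.

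Hsd17b7 fell by 45.9% (log2 fold change -0.89, SE 0.28, adjusted p = 0.0388), a call kept in 13 of 28 alternatives, and Fdft1 by 21.4% (log2 fold change -0.35, SE 0.11, adjusted p = 0.0440), kept in 12. Fdft1 stood at 31.7, 48.8 and 33.3 CPM against 45.9, 49.5, 48.3 and 59.9 in VF and at 36.6, 36.3 and 33.9 against 39.1, 53.5, 44.7 and 51.4 in Il1r1KO. In Il1bKO it stood at 25.4, 45.98 and 36.0 against 39.2, 42.7, 45.7 and 38.2. The weeks did not overlap in Il1r1KO, while in VF 1 library of 4 weeks lay within the range of 2 weeks and in Il1bKO 1 library of 4 weeks lay above each library of 2 weeks. Fdft1 shares exon sequence with Ctsb on the opposite strand, and the libraries are unstranded, so some of its reads cannot be assigned to strand; the same holds for Cyp51 with Akap9 and Srebf1 with Rai1, and Fdps and Tm7sf2 share exon sequence with Gm43738 and Vps51 on their own strand. Leaving out a single library gave 3 to 6 called members, with 3 without VF_2w replicate 3, Il1bKO_4w replicate 7 or Il1r1KO_4w replicate 5. Over all genes the same fits called 1305 to 2299, against 1956 with each library kept.

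Higher at 4 weeks, none of them called, were Ebp, the sterol isomerase, Fdps, the farnesyl diphosphate synthase, Acaca, Mvk and Elovl6; Ebp, at a log2 fold change of 0.23 (SE 0.10, adjusted p = 0.132), was the 1 higher at an unadjusted p under 0.05. The 6 regulators and carriers were all lower, Srebf2 at -0.15 (SE 0.08) and Srebf1 at -0.03 (SE 0.11). Of the 58 other pathway genes, 4 were called lower and 2 called higher, against 5.82% and 8.53% of all genes. Soat1, which esterifies cholesterol, fell by 30.3% (log2 fold change -0.52, SE 0.14, adjusted p = 0.0155). Lipa, the lysosomal lipase (-0.28), and Faf2, which takes part in the degradation of INSIG proteins (-0.26), fell too. Hsd17b12 (0.27) and Tecr (0.19), both of very long chain fatty acid elongation, rose.

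**Figure D5:**
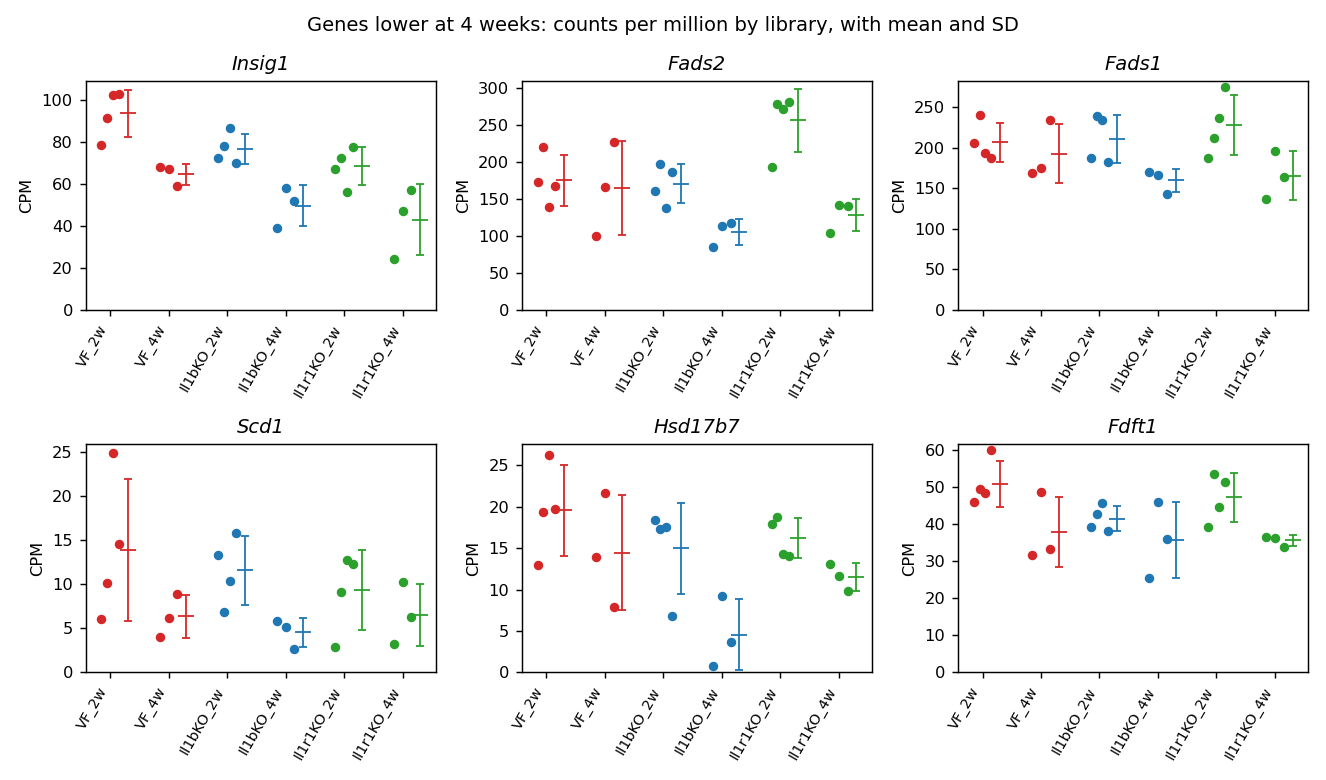
CPM by library (points) of the 6 members called in the comparison of 4 with 2 weeks, by mutant genotype and week, with group mean and SD. Insig1 is lower at 4 weeks in each genotype, Fads2 in Il1bKO and Il1r1KO, and Scd1 and Hsd17b7 are spread widely within groups.

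Other measures moved between the weeks as well. All 25 cycling genes were higher at 4 weeks (17 called, median log2 fold change 0.49), with summed levels of 2566.1 to 4055.7 CPM in the 12 mutant libraries of 2 weeks and 2844.5 to 7006.6 CPM in the 9 of 4 weeks. Of the 14 stem cell markers 13 were lower (4 called), with sums of 3594.4 to 4466.0 CPM and 2663.2 to 3626.5 CPM. Erythroid markers were higher in 7 of 12 (2 called) and megakaryocyte markers in 6 of 9 (2 called). Their part in the lower sterol and desaturase values was not tested. In Il1r1KO against VF, cycling genes were higher in 25 of 25 over both weeks (median 0.34, 0 called). By week they were higher in 17 of 25 at 2 weeks (median 0.05) and in 25 of 25 at 4 weeks (median 0.69). Hmgcs1 and Insig1 lay below VF without overlap in each week. The part of cycling in their values was not tested.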

How the data were processed

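Gene-level read counts for 25 libraries of sorted mouse HSCs were analysed as deposited by the authors in 1 table of 13641 genes and 4 construct sequences. Per the labels, polyA RNA extracted with PicoPure went into unstranded SMART-Seq v4 libraries. Listed in the submitters' processing notes, without roles, are STAR 2.7.10a, featureCounts, FastQC 0.11.5 and R 4.2.2, with mm10 as the build; overlap and multi-mapping settings of the counting are not given in the sources used here. Libraries were grouped by genotype and week from their labels. Depth was 21990959 to 40178173 counts, and no gene in the table had a maximum below 32, so its lowest genes had been left out. Constructs were kept out of library sizes and tests.

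In R 4.3.3, edgeR 4.0.16 (TMM, filterByExpr, robust quasi-likelihood fit) fitted 7 groups at once, and contrasts were adjusted by Benjamini-Hochberg over 13630 genes at 0.05. CPM use TMM library sizes; log2 values of CPM add 0.5; lengths, positions and 13623 symbols come from GENCODE vM21 and promoters from RefSeq. Alternatives were RLE factors, DESeq2 1.42.0, limma 3.58.1 voom with quality weights, other filters, only the groups compared, a replicate block, each library left out, and VF_4w replicate 6, Il1bKO_4w replicate 5 and Il1r1KO_4w replicate 5, or WT_2w replicates 3 and 4, left out together; tests of the change between weeks were added after the data were seen. Fits were checked on simulated data. Named with full statistics are the 3 members of lowest p in each of 5 primary comparisons and any member called; other members are given by level, and other pathway genes by count unless called. The values of 1 called pathway gene are not reported here. The members, lists and tests were chosen with earlier results of these data known.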

Additional observations from a re-analysis of the deposited data

Results flagged for a closer look

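In groups of 4 libraries, a library was marked where its gap to the nearest other exceeded the 95% critical value of Dixon's test; 6 of 128 gene and group pairs were marked (4.69%), and chance marks about 1 in 20. Low libraries were Mvk in Il1bKO_2w replicate 1 (9.18 CPM, others 10.2 to 10.3), Hsd17b7 in Il1bKO_2w replicate 4 (6.79, others 17.3 to 18.4), Ebp in WT_2w replicate 1 (31.5, others 36.8 to 37.4) and Fads2 in Il1r1KO_2w replicate 1 (193.2, others 272.3 to 281.7). High libraries were Sqle in Il1r1KO_2w replicate 4 (157.2, others 104.6 to 107.6) and Acat2 in WT_2w replicate 3 (99.2, others 81.9 to 83.2).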

How the results depend on the processing

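In the comparison of VF with WT, no alternative called a member. For Il1r1KO against VF over both weeks, the count of members called moved from 0 to 1 with DESeq2, with limma voom and with only the groups compared; in each it was Hmgcs1. For Il1bKO against VF at 4 weeks it moved from 0 to 1 with DESeq2, and the fits that leave out a library gave 0 to 1. Those fits also gave 0 to 1 for Il1bKO against VF and for Il1r1KO against Il1bKO over both weeks, and 3 to 6, against 6, between weeks. Between weeks they called 1305 to 2299 of all genes, against 1956 in the fit reported. Counts over all genes moved more: 1 to 8 across alternatives for VF against WT (1 in the fit reported), 13 to 100 for Il1bKO against VF (19), 20 to 321 for Il1r1KO against VF (23), 18 to 166 between the knockouts (24), 0 to 15 and 0 to 375 for Il1bKO against VF at 2 and 4 weeks (1 and 17), 2 to 21 and 1 to 406 for Il1r1KO against VF (7 and 20), 3 to 24 and 3 to 46 for the knockouts against WT (6 and 8), and 0 to 51 and 0 to 32 for the changes between weeks (2 and 0); the cause was not tested. Leaving out single libraries gave 13 to 63, 15 to 117 and 23 to 124 genes in the 3 comparisons over both weeks, 0 and 5 to 225 for Il1bKO against VF at 2 and 4 weeks, and 1 to 2 and 1 to 139 for Il1r1KO against VF. Same-numbered libraries did not deviate together (33 pairs, r from -0.197 to 0.121), so the numbers were not taken as pairs; with a replicate block 0 members were called in each genotype comparison, and no block could be fitted between weeks, which share no number. The lowest member count in a library was 32 reads.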
